A study of Schizosaccharomyces pombe with 40 samples.

Results

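Septins are GTP-binding proteins that assemble end to end into filaments at membranes. Fission yeast, Schizosaccharomyces pombe, has 7 septin genes, spn1 to spn7, and all 7 were taken by their identifiers from the 12684 features of the count table, whatever their values. In growing cells Spn1, Spn2, Spn3 and Spn4 form the ring at the division site that guides the separation of daughter cells. In meiosis Spn2, Spn5, Spn6 and Spn7 assemble at the forespore membrane, the double membrane that grows around each haploid nucleus to make a spore, so that Spn2 serves in both settings and the other subunits are exchanged.

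Poly(A)+ RNA was sequenced from haploid h- cells with the genotype leu1-32, pat1-L95G::kanR, either with snR107kloopmut, a mutated allele of the C/D-box snoRNA gene snR107, or with the unmutated gene (wt). Pat1 is the kinase that blocks meiosis in growing cells, and the L95G form can be switched off by the ATP analogue 3-MB-PP1. Cultures were sampled during vegetative growth in EMM at 30 °C (V), after 15 to 16 h without nitrogen (-N), and at each hour from 1 h to 8 h after the addition of 3-MB-PP1 (25 µM), leucine (50 mg/L) and NH4Cl (500 µg/mL). Each of the 20 groups held 2 libraries, biological replicates 1 and 2, with 22889781 to 35440184 counts each. Both strains carried pat1-L95G and received the same inhibitor, so all hours describe a meiosis that was forced in haploid cells without mating, not a diploid meiosis. The h- label was checked on mating genes. The summed level of 6 genes of the M mating type ran over 317.1 to 81290 RPKM (counts scaled by gene length and library size). That of 4 genes of the P type ran over 33.8 to 197.5 RPKM. Among these 4, map2, which encodes the P pheromone, had the lowest median, 0.56 RPKM. The other P genes had higher medians, and ran over 1.892 to 51.84 RPKM (map1), 6.404 to 38.39 (map3) and 5.019 to 182.7 (map4). Single genes of the types overlapped in level, since mam1 and mam3 of the M type fell to 12.54 and 8.815 RPKM. The check therefore rests on the sums.

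The 7 genes lie on all 3 chromosomes. In the coordinates of the count table, which were the same as those of the RefSeq assembly ASM294v3 for each of the 7, spn1 (SPAC4F10.11) lies at chromosome I, 4853040 to 4855199, on the forward strand, and spn2 (SPAC821.06) at chromosome I, 990205 to 991889, also forward. On the reverse strand of the same chromosome spn4 (SPAC9G1.11c) lies at 1991482 to 1993081 and spn5 (SPAC24C9.15c, also called mde9 and meu28) at 3074267 to 3075988. On the reverse strand of chromosome II spn3 (SPBC16A3.01) lies at 4298727 to 4300497 and spn7 (SPBC19F8.01c, also called mde8) at 3228620 to 3230510. The last of the 7, spn6 (SPCC188.12), lies at chromosome III, 1504891 to 1506851, on the forward strand. The genes hold 1 exon (spn4) to 6 exons (spn7), and the longest stretch of bases that any 2 septin transcripts share exactly is 15, between spn1 and spn5.

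The counts did not separate the strands of the genome, and this limits above all what the values of 3 septins stand for. Among 345 protein-coding genes that lie wholly inside a non-coding RNA of the opposite strand, the summed count of the non-coding RNA was never below 0.902 of that of the gene, with a median of 1.09. Features on the opposite strand cover 99.2% of spn2, 97.0% of spn6 and 84.5% of spn7, against 37.7% of spn3, 34.8% of spn4, 19.9% of spn1 and none of spn5. For spn2 and spn7 the opposite feature is mostly a non-coding RNA, SPNCRNA.702 and SPNCRNA.1588, whose counts were 0.786 to 1.01 and 0.713 to 1.07 of the septin's in the 40 libraries. For spn6 it is dcr1, the gene of the Dicer ribonuclease of RNA interference, which contains 1903 bases of spn6. Its count was 0.986 to 1.95 of that of spn6, and the excess of dcr1 over spn6 was at most 946 counts while spn6 itself reached 15271. Transcripts of spn2, spn6 and spn7 and transcripts from the opposite strand therefore cannot be told apart in these counts, and every value given for these 3 genes is that of the locus. Shorter overlaps lie in spn4, which shares 556 bases with SPNCRNA.2890 (0.197 to 0.533 of its count), and in spn1, which shares 429 with SPNCRNA.4181 (0.0999 to 0.391). The part of these shared reads in the levels of spn4 and spn1 was not tested. spn7 also shares 108 bases with ppk24 on the same strand, whose count was 0.110 to 4.47 of that of spn7. The values of spn5 are free of such overlap.

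**Figure D1:**
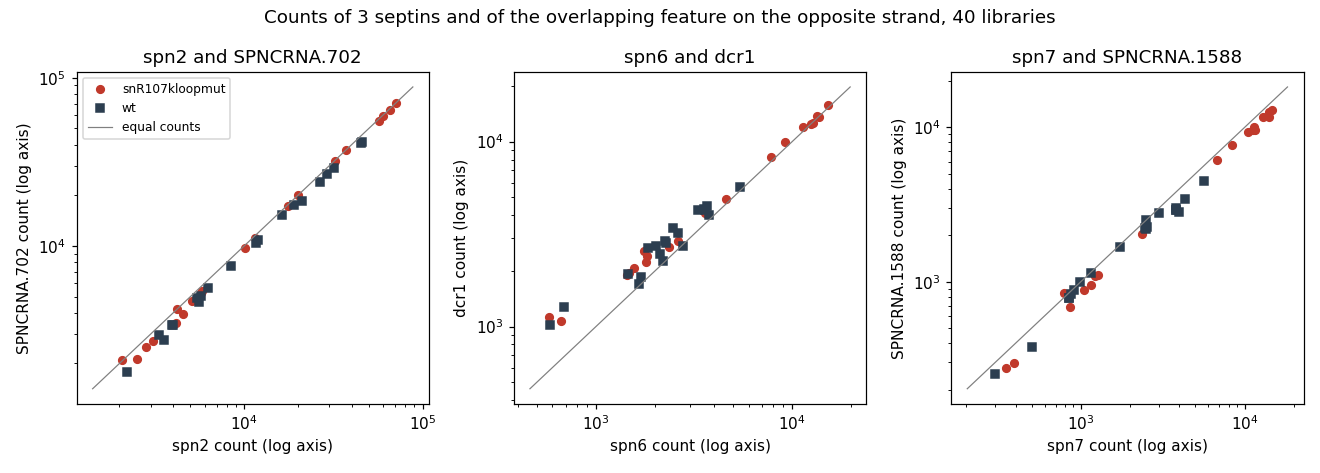
Counts of spn2, spn6 and spn7 (x axis, log scale) against those of the overlapping feature on the opposite strand (y axis, log scale) in the 40 libraries of snR107kloopmut (circles) and wt (squares), with a grey line at equal counts. The points lie close to the line for spn2 and spn7, and for spn6 the dcr1 count exceeds it by at most 946.

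The window from 250 bases before to 50 bases after the annotated start of each gene was searched on both strands for motifs of cell cycle and meiotic factors in 5112 protein-coding genes. The FLEX element, GTAAACA or GTAAATA, is bound by fork-head factors, among them Mei4, the transcription factor of middle meiosis. The form GTAAACA occurred in the windows of spn5 and spn7 and in 16.5% of all windows, and the form GTAAATA in those of spn2 and spn4 and in 16.2%. The 6 matches are shown because they fall both in septins that rose in meiosis and in spn4, which fell. Each is printed 5′ to 3′ on the strand that reads as the motif, with the motif in capitals and 11 bases on each side, in ASM294v3. The annotated start of spn5 is its start codon, so its window may hold transcribed bases. The site in spn2 (chrI:990134-990162, forward) has its farthest base 60 bases before the gene start, those in spn4 (chrI:1993168-1993196 and chrI:1993073-1993101, forward) 104 and 9 bases before it on the other strand, those in spn5 (chrI:3076206-3076234, forward, and chrI:3076142-3076170, reverse) 235 and 171 bases before it, and that in spn7 (chrII:3230519-3230547, reverse) 26 bases before it.
spn2: aaaaaaaaatcGTAAATAttgccgagacc
spn4, far site: gctttcgtctcGTAAATAtactaactatc
spn4, near site: ggaaggtctaaGTAAATAgataatcgaag
spn5, far site: attgacaagaaGTAAACAatcgatgccta
spn5, near site: tgcctttgaaaGTAAACAcaacaaacaaa
spn7: tttattaagcaGTAAACAaacaaacccaa

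No FLEX match was found in the windows of spn1, spn3 and spn6. The sequences ACGCGT, TTCTTTGTT and TGACGT, the cores of the elements read by the MBF complex, by Ste11 and by Atf1, occurred in none of the 7 windows and in 3.25%, 2.00% and 5.91% of all. These matches describe letters only, and binding was not measured.

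The exchange of subunits was seen at the transcript level in both strains. The plot of levels by stage gives every library.

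**Figure D2:**
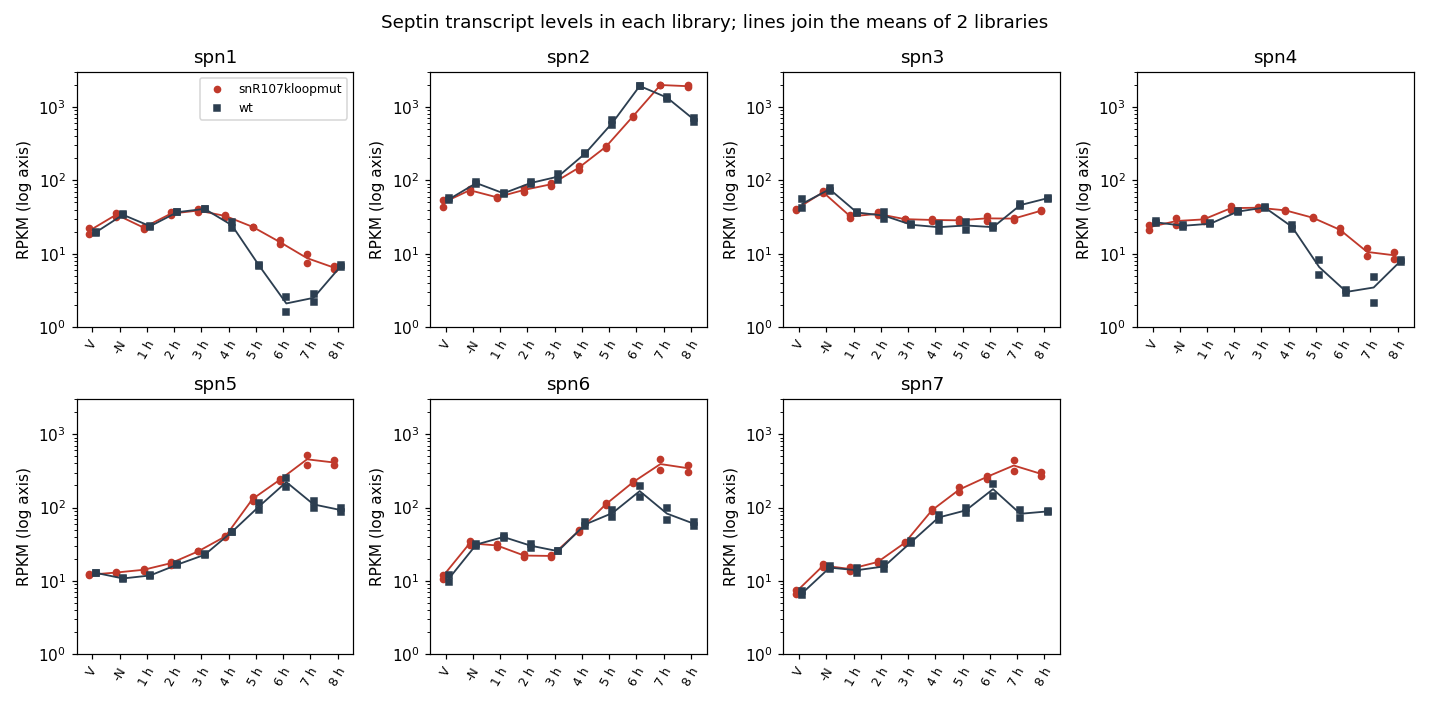
RPKM (log axis) of each septin by stage in each library, for snR107kloopmut (circles) and wt (squares), with lines through the means of 2 libraries. In wt, spn2, spn5, spn6 and spn7 peak at 6 h while spn1 and spn4 are near 2 to 3 RPKM, and in snR107kloopmut the peak comes at 7 h and the decline of spn1 and spn4 is later.

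In vegetative cells spn2 and spn3 had the highest levels per length and spn7 the lowest. Levels in V averaged 49.1 RPKM for spn2, 40.4 for spn3, 23.01 for spn4, 20.5 for spn1, 12.1 for spn5, 11.4 for spn6 and 7.07 for spn7 in snR107kloopmut cells. In wt cells the same order held, with 55.2 RPKM for spn2, 48.1 for spn3, 26.8 for spn4, 19.5 for spn1, 12.9 for spn5, 10.8 for spn6 and 6.86 for spn7. Neighbours whose libraries overlapped were spn4 and spn1, and spn5 and spn6, in snR107kloopmut, and spn2 and spn3 in wt. The strains did not differ past the threshold for any of the 7 septins in V, where 5.94% of 12019 features tested did, and no septin had an unadjusted p under 0.05 there. Without wt replicate 2, 1 septin passed in V, beside 21.9% of features. The threshold throughout was an adjusted p under 0.05 from edgeR's quasi-likelihood test with Benjamini-Hochberg adjustment over all features tested, and differences are on the log2 scale with standard errors.

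Nitrogen starvation raised the same 5 of the 7 septins in each strain, among 56.1% of features called in snR107kloopmut and 55.6% in wt. The largest rise was that of spn6, which had 34.8 and 30.5 RPKM in -N, against 10.8 and 12.1 RPKM in V, in snR107kloopmut. In wt it had 30.4 and 32.3 RPKM in -N, against 9.54 and 12.1 RPKM in V. The log2 differences were 1.51 ± 0.18 and 1.54 ± 0.18 (adjusted p = 5.55e-08 and 4.60e-08 by edgeR). The other septins that rose were spn7 (1.19 and 1.14), spn1 (0.73 and 0.80), spn3 (0.77 and 0.65) and spn2 (0.58 and 0.73), where each pair gives snR107kloopmut and then wt. For spn4 the differences were 0.28 ± 0.19 and -0.16 ± 0.19 and for spn5 0.10 ± 0.14 and -0.26 ± 0.14, none past the threshold. By total counts spn4 and spn5 also passed in snR107kloopmut, at 0.68 and 0.50 (adjusted p = 0.0065 and 0.0043 by edgeR). At -N the strains did not differ past the threshold for any septin, where 0.532% of features did, and 1 septin, spn2, had an unadjusted p under 0.05. DESeq2 called no septin between the strains in V, in -N or at 1 h.

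spn1 and spn4 encode subunits of the ring of dividing cells, and their transcripts fell in the second part of the course. In wt, spn1 had 2.61 and 1.60 RPKM at 6 h, against 34.6 and 33.4 RPKM in -N, a fold of 16.1 and a log2 difference of -4.01 ± 0.17 (adjusted p = 2.28e-18 by edgeR), or -5.23 by total counts. In snR107kloopmut it had 15.2 and 13.7 RPKM at 6 h, against 36.2 and 32.1 RPKM in -N, and it reached its lowest level only at 8 h, with 6.16 and 6.73 RPKM. The groups did not overlap in either strain. The lowest counts of any septin in any library were 43 for spn4 and 48 for spn1, in wt at 7 h and 6 h.

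spn4 followed spn1 closely. In wt it had 3.16 and 2.88 RPKM at 6 h, against 24.9 and 23.1 RPKM in -N, a log2 difference of -2.99 ± 0.23. In snR107kloopmut it had 22.6 and 19.8 RPKM at 6 h, against 30.98 and 24.9 RPKM in -N, and the difference of -0.40 ± 0.19 did not pass the threshold (adjusted p = 0.0631 by edgeR). By total counts it was -0.91 and passed (adjusted p = 0.00038 by edgeR), and DESeq2 called it too. Before its fall spn4 had risen, by 0.60 ± 0.18 in snR107kloopmut and 0.83 ± 0.19 in wt at 3 h against -N. At 8 h it stood 1.55 ± 0.20 and 1.58 ± 0.20 below -N on the log2 scale in snR107kloopmut and wt.

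spn3, the third subunit of the mitotic ring that is not used in spores, did not follow spn1 and spn4. It was highest in -N in both strains and fell early, with 29.7 and 29.5 RPKM at 3 h, against 66.2 and 71.5 RPKM in -N, in snR107kloopmut (log2 difference -1.22 ± 0.13). In wt it had 24.3 and 25.2 RPKM at 3 h, against 72.6 and 78.6 RPKM in -N (-1.61 ± 0.13). Thereafter wt levels rose again to 58.1 and 56.0 RPKM at 8 h, which left them 0.41 below -N on the log2 scale. In snR107kloopmut they reached 38.97 and 38.03 RPKM. By total counts wt had 34.7 and 33.3 RPKM at 3 h, 12.8 and 13.1 RPKM at 6 h and 33.3 and 34.1 RPKM at 8 h. Under that scaling wt at 8 h was thus no higher than at 3 h, and 1.56 below -N on the log2 scale. By total counts snR107kloopmut had 41.3 and 38.7 RPKM at 3 h and 24.8 and 22.9 RPKM at 8 h. The gene SPBC16A3.02c on the opposite strand shares 148 bases with spn3, and its count was 0.704 to 5.99 times that of spn3, with the largest excess, 24341 counts, in wt at -N. The non-coding SPNCRNA.6535 shares 520 bases with spn3, 29.4% of its length, and had 0.504 to 2.88 times its count. The part of these shared reads in the level of spn3 was not tested.

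spn2, the subunit of both assemblies, had the highest mean level of the 7 at every stage in both strains, although its libraries overlapped those of spn3 in V in wt and in -N in snR107kloopmut. In wt it had 1932 and 1923 RPKM at 6 h, against 87.9 and 95.6 RPKM in -N, a fold of 21.02 and a log2 difference of 4.39 ± 0.13 (adjusted p = 1.41e-21 by edgeR), or 3.17 by total counts. In snR107kloopmut it had 735 and 762 RPKM at 6 h, against 70.1 and 76.5 RPKM in -N, a log2 difference of 3.35 ± 0.13. The peak in snR107kloopmut came at 7 h, with 1987 and 1986 RPKM, beside a mean of 1927 RPKM at the wt peak. In this scaling the strains reached like levels 1 h apart. By total counts the peaks, at the same hours, were 1384 and 1352 RPKM in snR107kloopmut and 1106 and 1069 RPKM in wt, without overlap.

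The septins made for spores peaked at the same hour as spn2 in each strain, at lower levels. spn5, which has no overlapping feature, had 384 and 525 RPKM at its peak at 7 h in snR107kloopmut, against 12.7 and 13.3 RPKM in -N, a fold of 34.8 between the means. In wt it had 255 and 190 RPKM at its peak at 6 h, against 11.1 and 10.5 RPKM in -N, a fold of 20.6. spn7 peaked at 310.4 and 438 RPKM at 7 h in snR107kloopmut, against 16.9 and 15.5 RPKM in -N, and at 212 and 144 RPKM at 6 h in wt, against 16.0 and 14.4 RPKM in -N. spn6 peaked at 325 and 458 RPKM at 7 h in snR107kloopmut, against 34.8 and 30.5 RPKM in -N, and at 197 and 138 RPKM at 6 h in wt, against 30.4 and 32.3 RPKM in -N. At these peaks the libraries of spn5, spn6 and spn7 overlapped in snR107kloopmut. Those of spn5 and spn7 and of spn7 and spn6 overlapped in wt, so no order among them holds there. By total counts some libraries of spn6 and spn7 peaked at another hour, while those of spn5 did not. In wt replicate 2, spn7 then had 98.6 RPKM at 4 h and 80.3 at 6 h, and spn6 79.0 and 76.9. In snR107kloopmut replicate 1, spn7 had 247 RPKM at 6 h and 216 at 7 h.

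The 4 differed in their early change from -N, a level to which spn2, spn6 and spn7 had already risen from V. By 3 h against -N, spn5 and spn7 had risen in both strains, by 0.96 ± 0.14 and 1.03 ± 0.16 in snR107kloopmut and by 1.07 ± 0.14 and 1.16 ± 0.16 in wt. At the same hour spn2 stood at 0.27 ± 0.12 in snR107kloopmut, not past the threshold, and at 0.29 ± 0.12 in wt, past it (adjusted p = 0.0342 by edgeR). spn6 stood at -0.57 ± 0.17 in snR107kloopmut, where it had fallen, and at -0.30 ± 0.17 in wt, not past the threshold. Its means at 3 h, 21.9 RPKM in snR107kloopmut and 25.5 in wt, were still above those in V, 11.4 and 10.8 RPKM. In all, 5 of 7 septins changed at 3 h against -N in each strain, beside 55.2% of features in snR107kloopmut and 59.7% in wt. Without snR107kloopmut replicate 2, 3 septins passed in snR107kloopmut, beside 38% of features. At 6 h against -N 6 septins changed in snR107kloopmut and 7 in wt, beside 66% and 79.1% of features, and at 8 h all 7 in both strains, beside 72.1% and 70.1%. In wt spn6 was still 0.94 ± 0.17 above -N at 8 h, but stood at -0.22 by total counts (adjusted p = 0.244 by edgeR), a scaling that moved the median of all features by -1.15 in that comparison. Over the whole course from 1 to 8 h all 7 changed in each strain, beside 92.7% of features in snR107kloopmut and 96.1% in wt, so the number of septins that changed says little by itself.

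The exchange was also seen in the summed levels. The sum of spn5, spn6 and spn7 stood below that of spn1, spn3 and spn4 in every library up to 3 h and above it in every library from 4 h on, in both strains. In V the 3 mitotic septins made up 51.3% ± 0.131 of the summed RPKM of the 7 in snR107kloopmut and 52.3% ± 2.39 in wt (SD, n = 2 each). At 6 h they made up 4.304% ± 0.538 in snR107kloopmut and 1.12% ± 0.0611 in wt, and at 7 h 1.52% ± 0.0130 and 3.11% ± 0.0234. The wt share was therefore lowest at 6 h and the snR107kloopmut share lowest at 7 h, and the groups did not overlap at either hour. The total of the 7 includes spn2, so the mitotic share also falls as spn2 rises. In wt the mitotic sum itself averaged 94.4 RPKM in V, 28.1 RPKM at 6 h and 71.9 RPKM at 8 h. Of it, spn3 averaged 23.01 RPKM at 6 h and 57.1 RPKM at 8 h. In snR107kloopmut the sum averaged 83.99 RPKM in V and 49.4 RPKM at 7 h, where spn3 averaged 30.1 RPKM.

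**Figure D3:**
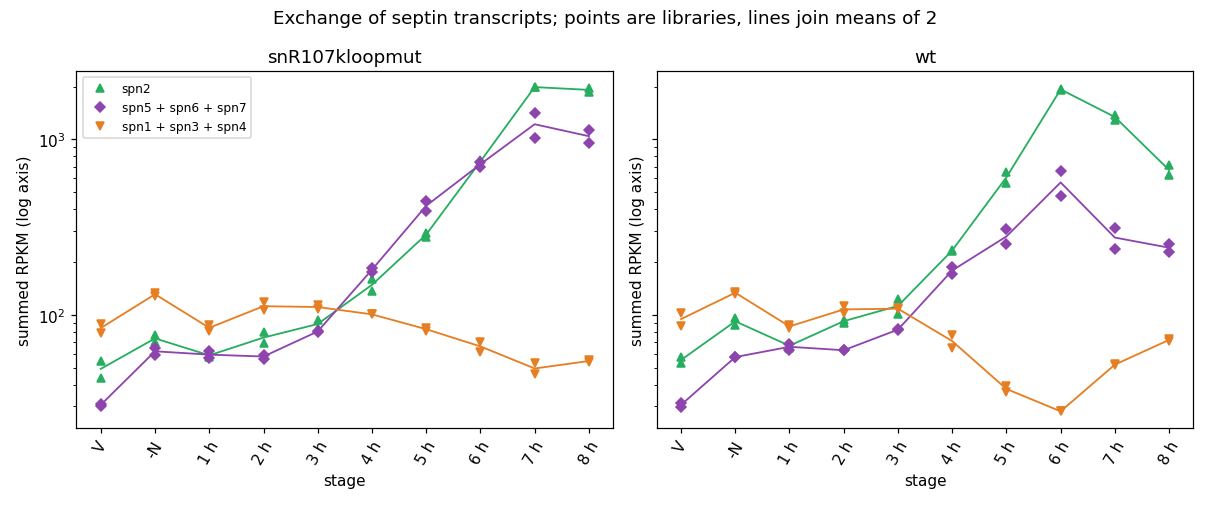
RPKM (log axis) of spn2, of the sum of spn5, spn6 and spn7 and of the sum of spn1, spn3 and spn4 by stage, in snR107kloopmut (left) and wt (right), with points for libraries and lines through the means of 2. The sums cross between 3 h and 4 h in both strains, and from 7 h the wt sums approach each other again.

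The ratio of the spore septins to the mitotic septins peaked at 24.5 ± 3.38 at 7 h in snR107kloopmut and at 20.2 ± 4.78 at 6 h in wt (SD, n = 2 each). It stood at 19.1 ± 1.98 in snR107kloopmut and 3.35 ± 0.182 in wt at 8 h. The wt ratio thus came down within 2 h of its peak, and the course of snR107kloopmut ended before a like interval had passed. Of the summed RPKM of the 7 septins, given with no test, spn2 was 48.7% ± 0.322 in snR107kloopmut and 76.5% ± 4.04 in wt at 6 h, while spn5, spn6 and spn7 together were 47.0% ± 0.860 and 22.4% ± 4.10. At 7 h spn2 was 61.3% ± 5.45 in snR107kloopmut and 80.4% ± 3.23 in wt, and at 8 h 63.6% ± 1.73 in snR107kloopmut and 68.1% ± 0.65 in wt. These shares use the lengths in the table, which include introns.

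The strain difference opened hour by hour and took a different form in each class of septin. No septin passed the threshold at 1 h, where 1.76% of features did and 1 septin had an unadjusted p under 0.05. At 2 h 1 septin passed, beside 29.5% of features, and at 3 h 1, beside 26.8%. Both calls were of spn2, at -0.31 ± 0.12 and -0.34 ± 0.12 (adjusted p = 0.0467 and 0.0311 by edgeR). The call at 2 h was lost without snR107kloopmut replicate 1 and without either wt replicate, and that at 3 h without snR107kloopmut replicate 1 and without wt replicate 2, each of which left 0 septins called.

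At 4 h the mitotic septins were higher and spn2 lower in snR107kloopmut. At this hour 4 septins passed, beside 50.9% of features: spn4 at 0.74 ± 0.19, spn1 at 0.42 ± 0.14, spn3 at 0.33 ± 0.13 and spn2 at -0.65 ± 0.12. Without snR107kloopmut replicate 2 or without wt replicate 1 only 2 septins passed at 4 h, beside 39% and 36.6% of features. At 5 h 6 passed, beside 69.4%, and at 6 h 6, beside 68.5%, of which DESeq2 called 4, without spn3 and spn6. The largest differences were those of spn1 and spn4 at 6 h, at 2.78 ± 0.17 and 2.81 ± 0.23, or 6.86-fold and 7.02-fold higher in snR107kloopmut (adjusted p = 5.57e-14 and 1.14e-11 by edgeR). At the same hour spn2 was 2.58-fold lower in snR107kloopmut (-1.36 ± 0.12), and spn5 stood at 0.10 ± 0.13, not past the threshold. By total counts spn2 stood at -0.57 at 6 h and spn5 at 0.89, past the threshold (adjusted p = 1.45e-06 by edgeR).

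At 7 h and 8 h spn5, spn6 and spn7 were higher in snR107kloopmut by larger differences than before. They had been higher at 5 h, by 0.34 ± 0.13, 0.40 ± 0.17 and 0.94 ± 0.16, and spn6 and spn7 at 6 h, by 0.41 ± 0.17 and 0.55 ± 0.16. At 7 h all 7 passed, beside 65.1% of features, and at 8 h 5, beside 53.3%. spn6 was 4.73-fold and 5.73-fold higher at 7 h and 8 h (2.24 ± 0.18 and 2.52 ± 0.18), spn5 4.11-fold and 4.44-fold (2.04 ± 0.14 and 2.15 ± 0.14) and spn7 4.55-fold and 3.25-fold (2.18 ± 0.17 and 1.70 ± 0.16). The sign of spn2 turned, to 0.57 ± 0.12 at 7 h and 1.52 ± 0.12 at 8 h, and that of spn3 turned the other way, to -0.61 ± 0.13 and -0.57 ± 0.13. By total counts spn3 stood at -0.19 at 7 h, not past the threshold (adjusted p = 0.289 by edgeR). For spn1 and spn4 the difference at 8 h was -0.07 ± 0.15 and 0.24 ± 0.21, neither past the threshold.

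**Figure D4:**
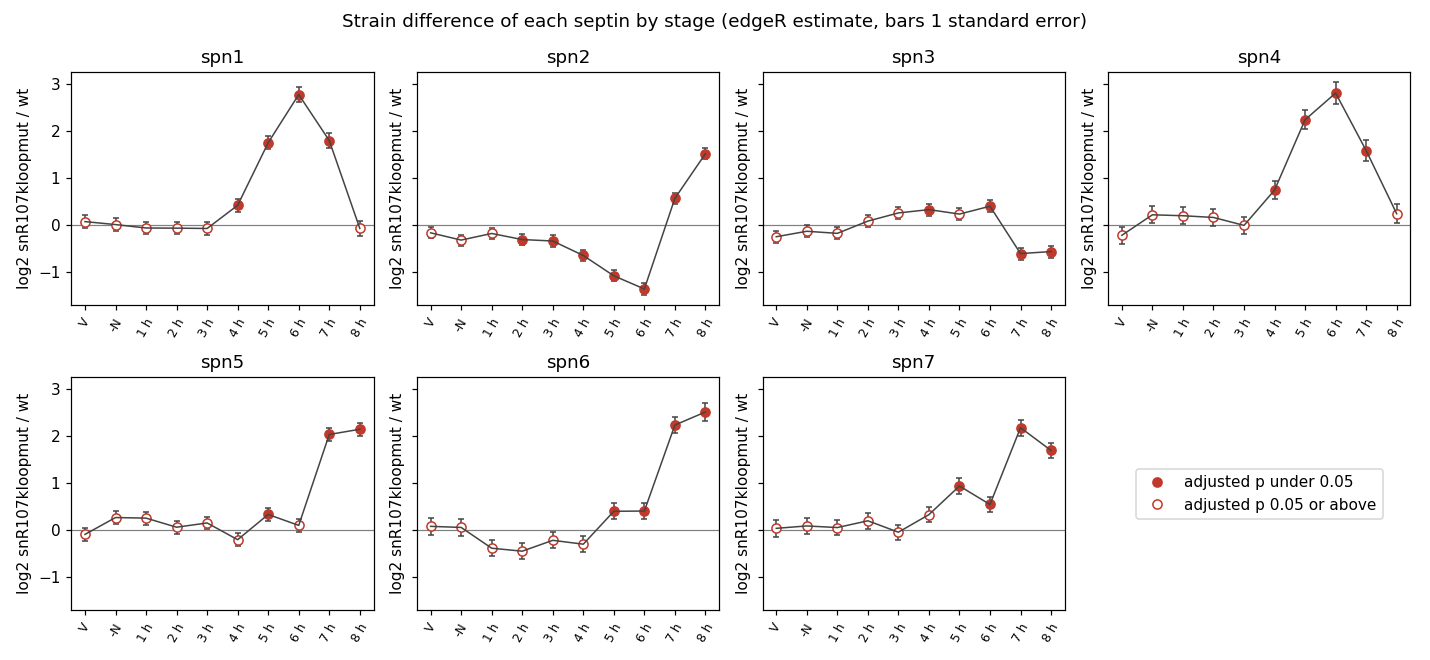
Log2 difference of snR107kloopmut over wt for each septin by stage, with bars of 1 standard error, filled where the adjusted p was under 0.05. spn1 and spn4 rise to 2.78 and 2.81 at 6 h and come back by 8 h, spn2 runs below 0 to 6 h and above it after, and spn5, spn6 and spn7 climb at 7 h.

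Averaged over 1 to 8 h, 6 of the 7 septins differed between the strains, beside 77.9% of features. The averages were 1.00 ± 0.07 for spn4, 0.81 ± 0.05 for spn1, 0.74 ± 0.06 for spn7, 0.61 ± 0.05 for spn5, 0.53 ± 0.06 for spn6, -0.23 ± 0.04 for spn2 and -0.01 ± 0.05 for spn3, of which only the last did not pass. These averages join hours of opposite sign, and their standard errors treat the hourly samples of a culture as independent. With 1 value per culture the calls of all 7 were the same. The sign of spn2 and that of spn3 turned when libraries were scaled by total counts, to 0.0534 (adjusted p = 0.174 by edgeR) and 0.28 (adjusted p = 3.07e-05), a scaling that moved the median difference of all features by 0.28 for the average and by 0.80 at 6 h. Relative to that median the difference of spn3 was -0.02 in both scalings. A change of scaling moves all features by nearly the same amount, so this likeness does not decide between the scalings. The change over the hours differed between the strains for all 7 septins in the test of the strain by time interaction, beside 81.8% of features.

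The snR107kloopmut libraries as a whole stood earlier on the wt course than their hour. Each induced library was placed, in steps of 0.1 h, where its profile over the protein-coding features other than septins correlated best with the interpolated wt means. The snR107kloopmut libraries were placed at 1.0 h for 1 h, 1.7 h for 2 h, 2.6 h for 3 h, 3.2 h for 4 h, 3.9 and 4.0 h for 5 h, 4.5 and 4.6 h for 6 h, 5.7 and 5.8 h for 7 h and 6.5 h for 8 h, with correlations of 0.945 to 0.991. The wt libraries, which themselves make up the course, were placed within 0.1 h of their hour.

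Set beside the wt level at the placed time, the septins differed from it by unequal amounts, given here as a description with no test. Up to 5 h spn1 and spn4 lay within 0.37 of it on the log2 scale, and at 6 h spn1 stood at 0.24 and spn4 at 0.88. Against wt at the same hour, spn1 differed by 1.75 and 2.80 at 5 h and 6 h, and spn4 by 2.27 and 2.79. At 7 h and 8 h spn1 was 1.63 and 1.5 above the wt level at the placed time and spn4 1.52 and 1.59. spn5, spn6 and spn7 were above it by 1.72, 1.64 and 1.66 at 6 h and by 1.40, 1.56 and 1.26 at 8 h. spn2 was above it by 0.93 at 6 h and by 0.25 at 8 h, and spn3 was within 0.37 of it at each hour. A shift in time and a change of level cannot be told apart by this placing, which rests on other transcripts that the mutation may also change.

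**Figure D5:**
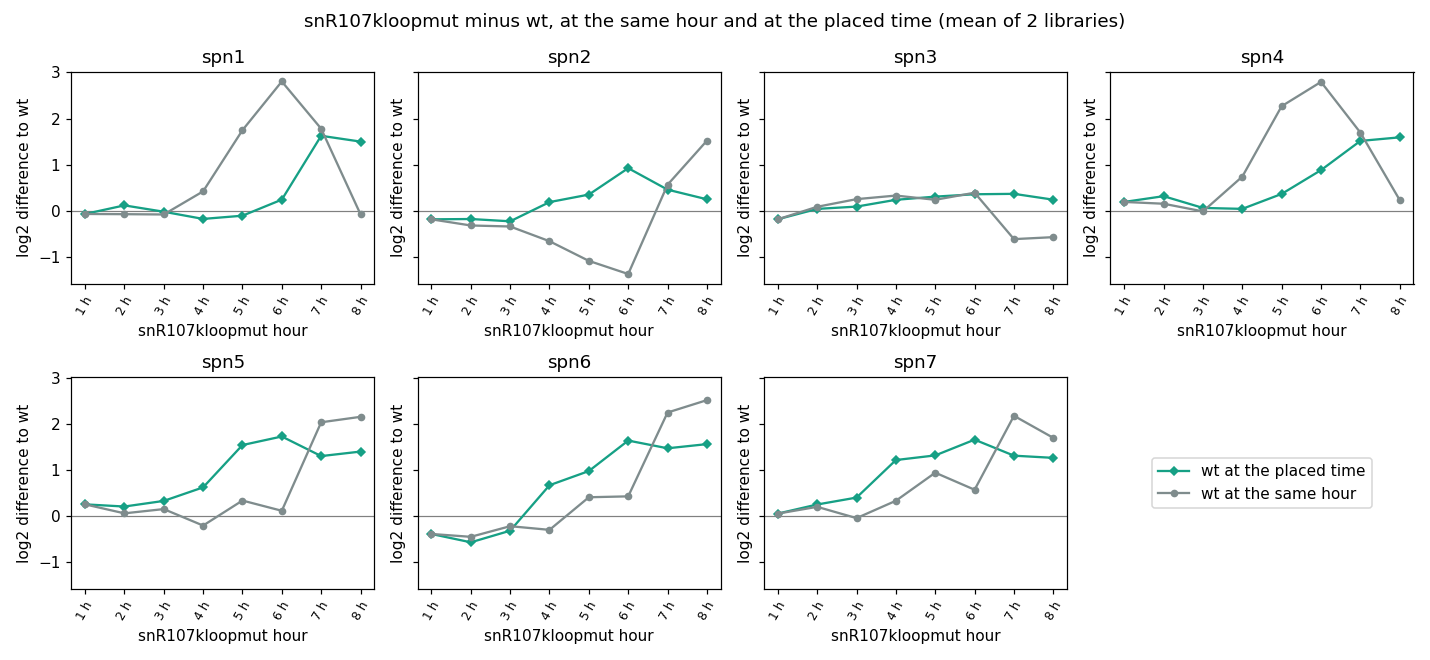
Log2 difference of snR107kloopmut to wt for each septin, against the wt level at the placed time (diamonds) and at the same hour (circles), by snR107kloopmut hour, as means of 2 libraries. The difference of spn2 at 6 h is -1.36 at the same hour and 0.93 at the placed time. That of spn1 is 2.80 and 0.24, and that of spn4 is 2.79 and 0.88.

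Over the 20 group means of log2 CPM (counts scaled to library size) the 7 septins formed 2 groups and 1 outlier. spn1 and spn4 had a Pearson correlation of 0.98, and spn2, spn5, spn6 and spn7 had 0.90 to 0.96 among themselves. spn3 had -0.42 to 0.09 with the other 6. The groups share the time course and the libraries, so these are descriptions. Among 5006 genes ranked by likeness to spn2, spn5 was at rank 76, spn6 at 334 and spn7 at 349. In likeness to spn5, spn7 was at rank 14, spn2 at 17 and spn6 at 61, and in likeness to spn1, spn4 was at rank 5. High correlations were thus not particular to septins. Among 4999 or 5000 protein-coding genes that share no base with the septin, the pattern most like that of spn2 was that of ubc11, a ubiquitin-conjugating enzyme (0.995), followed by dma1, a ubiquitin ligase of the spindle checkpoint (0.986), and mug65 (0.983). Those most like spn5 were mug94 (0.983), meu14, whose product marks the leading edge of the forespore membrane (0.982), and smp2 (0.978). For spn7 they were mug135 (0.991), mim2 (0.978) and nuc2, a subunit of the anaphase-promoting complex (0.969), and for spn6 mcp4 (0.971), mug94 (0.965) and the exonuclease gene exo1 (0.962). For spn1 they were mrp20 (0.987), taz1, a telomere binding protein (0.983), and coq8 (0.979), for spn4 swi6, the heterochromatin protein (0.986), pmc4 (0.985) and cog8 (0.985), and for spn3 tcb3 (0.9001), ptc4 (0.896) and rpo41 (0.895).

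The hexamer TNAAAC, bound in vegetative cells by Mmi1, the protein that marks meiotic transcripts for removal, was counted in the spliced sequence of 5113 protein-coding transcripts. spn4 held 9 copies, spn7 8, spn6 7, spn5 6, and spn1, spn2 and spn3 3 each. Per kilobase these are 5.63 for spn4, 5.11 for spn7, 3.76 for spn5 and 3.69 for spn6, against 2.14 for spn2, 2.02 for spn3 and 1.44 for spn1, and the median of all transcripts is 1.64. The density of spn4 was above that of most transcripts as well, so a high density is not a feature of the spore septins alone. In V the 3 spore septins were at 6.46 to 12.99 RPKM in every library of both strains.

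Genes that work with the septins moved in several ways between the strains over the mean of 1 to 8 h, where 77.9% of all features were called, 4729 higher and 4629 lower in snR107kloopmut. Of 13 genes of septum building and cell separation, which make and digest the septum, 12 were lower and none higher in snR107kloopmut over the mean of 1 to 8 h, with a median of -0.58 against 0.01 for all features, and the largest fall was that of eng1, a glucanase that opens the septum (-0.86 ± 0.08). By total counts 9 were lower and 1 higher, with a median of -0.29 against 0.30 for all features. Of 5 partners of the septin ring, 3 were lower and 1 higher, with mid2, an anillin-like protein that stabilizes the ring, at -0.68 ± 0.04 and pck2, a protein kinase C, at 0.19 ± 0.03. By total counts 2 were lower and 3 higher. This mean joins opposite hours, with 4 partners lower and none higher at 6 h, and 4 higher and none lower at 8 h.

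Of 12 genes of the forespore membrane, 6 were higher and 5 lower in snR107kloopmut, with a median of 0.04, and the extremes were spo13, a component of the spindle pole body that starts the membrane, at 1.48 ± 0.06 and its3 at -0.65 ± 0.04. By total counts 9 were higher and 2 lower. Of 13 genes of the contractile ring 4 were higher and 6 lower, from cdc8, which encodes tropomyosin (1.05 ± 0.04), to pxl1, a paxillin-like protein (-0.74 ± 0.08), and by total counts 6 were higher and 3 lower. Of 13 genes of the septation initiation network 9 were higher and 3 lower, from sid4 (0.91 ± 0.05) to mob1 (-0.25 ± 0.05), and by total counts 12 were higher and none lower. This mean too joins unlike hours, with 3 higher and 6 lower at 6 h, and 10 higher and none lower at 8 h. Of 8 subunits of the exocyst 3 were higher and 3 lower, from exo84 (0.69 ± 0.04) to sec15 (-0.41 ± 0.04), and by total counts 6 were higher and 1 lower.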

How the data were processed

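Per the labels and the study's methods, the authors sequenced poly(A)+ libraries, trimmed reads with fastp 0.23.1, mapped them (STAR 2.6.1d) and assigned them to features by featureCounts of Subread 2.0.6. The deposited values are raw counts per feature for 40 libraries. Genome release and strand setting are not given in the sources used here, and no column was left unmatched to a sample. The members and gene lists were chosen with earlier results of these data known.

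All libraries were fitted together with edgeR 4.0.16 (R 4.3.3): 12019 features passed filterByExpr and 665 did not, libraries were scaled by TMM, and each strain at each stage was a group in a quasi-likelihood model with Benjamini-Hochberg adjustment. The routine was tested on simulated data. RPKM was computed with TMM-scaled sizes and the lengths in the table. Alternatives were DESeq2 1.42.0, limma 3.58.1 on 1 value per culture, other scalings, filters and subsets. For each septin the 3 genes with the most similar pattern were named, and of each list the largest rise and fall past the threshold in the average over hours. The replicate numbers were checked for pairing. The correlation of replicate differences between strains ran from -0.102 to 0.280 over stages, so samples were not treated as paired across strains. Between stages of a strain it ran from -0.492 to 0.645 in snR107kloopmut (median 0.048) and from -0.062 to 0.400 in wt (median 0.095). Each of the 4 cultures was sampled at the 10 stages, and the fit treated these samples as independent. Standard errors of averages over hours therefore do not measure the spread between cultures. Replicates are biological by their labels, and counting precision was not limiting except near the lowest counts, 43 and 48.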

Additional observations from a re-analysis of the deposited data

Results flagged for a closer look

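The change from -N over 1 to 8 h differed between snR107kloopmut and wt for each of the 7 septins in the interaction test of edgeR. The adjusted p was 7.07e-13 for spn1, 4.48e-13 for spn2, 1.75e-05 for spn3, 5.38e-10 for spn4, 4.44e-12 for spn5, 5.22e-12 for spn6 and 1.34e-09 for spn7. Since 81.8% of all features tested passed the same test, these calls do not set the septins apart.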

How the results depend on the processing

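With the replicate block by number, the count of septins past the threshold was that without the block in every comparison but 3 h against -N in snR107kloopmut, 6 with it and 5 without. By total counts the difference averaged over hours was 0.0534 for spn2 and 0.28 for spn3, and spn6 at 8 h against -N in wt was -0.22 rather than 0.94, each of opposite sign to the TMM value. At 2 h, 0 septins differed between the strains with DESeq2's size factors, by total counts or with that stage fitted alone, and 2 with protein-coding features alone. At 3 h, 0 differed with that stage alone. When each culture was left out in turn, the count between strains ran from 0 to 1 in V, 0 to 1 at 2 h, 0 to 1 at 3 h and 2 to 4 at 4 h, and the count at 3 h against -N in snR107kloopmut from 3 to 6. Where a culture was left out, the lone library was assumed to vary like the others. The hour at which the spore septins overtook the mitotic ones was 4 h in both strains also with lengths of exons only, an alternative chosen after seeing the data. It was 4 h by total counts too, but that scaling changes all septins of a library by the same factor and could not move this hour. With 2 libraries a group, small differences at 1 h to 3 h were not resolved.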
